A study of Mus musculus with 16 samples.

Results

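Microtubules of the mouse oocyte are polymers of α/β-tubulin dimers, and each of these proteins is made from a small family of genes called isotypes. This account covers 10 of them: the α-tubulins *Tuba1a*, *Tuba1b*, *Tuba1c* and *Tuba4a*, the β-tubulins *Tubb2a*, *Tubb2b*, *Tubb4b*, *Tubb5* and *Tubb6*, and *Tubg1*, which encodes the γ-tubulin that nucleates microtubules. They were chosen by gene name, with earlier results of these data known. All 10 were found among the 27987 gene names of the expression table, in 12 of its 28618 entries, because *Tubb5* had 3 entries.

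The data were RNA-seq of oocytes from wild-type (WT) mice and from mice in which *Psma7*, an α-ring subunit of the 20S proteasome, was deleted in oocytes (Zp3-Cre; *Psma7* flox/flox, *Psma7* cKO). CRE under the Zp3 promoter acts in oocytes from the primary follicle stage on, so granulosa and other cells keep the gene. Females were 3 to 4 weeks old and received 5 IU of PMSG, a gonadotropin that drives follicle growth, and fully grown oocytes still arrested in prophase with an intact germinal vesicle (GV oocytes) were taken 44 h later. Ovulated eggs at metaphase II (MII eggs) came from females that were also given hCG, the ovulation trigger, 14 to 16 h before collection, and were freed of cumulus cells with 0.3% hyaluronidase. The study reported that part of the ovulated cKO oocytes remained at the GV stage or did not complete the first meiotic division. The labels call these libraries MII, and whether such oocytes were in the cKO pools was not tested. Each of the 4 groups had 4 libraries labelled as biological replicates, each from 5 oocytes by the labels (the study's methods give another pool size), made by Smart-seq2, which primes on poly(A) tails. The cKO carries the transgene as well as the deletion, and these cannot be told apart where the WT lacks both. Levels are FPKM, fragment counts scaled to transcript length and to the mapped fragments of the library, so a level is a share of its library.

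An oocyte assembles its meiotic spindle without centrioles, from tubulin made during growth, and transcription is silent from the end of growth until the embryo. During maturation many stored mRNAs are deadenylated and degraded while others are kept or translated. Tubulin mRNAs in somatic cells are also under autoregulation: when free tubulin dimers are in excess, the protein TTC5 binds the first residues of a nascent tubulin chain at the ribosome and the mRNA being translated is degraded.

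The stretch that TTC5 reads is encoded in the first codons, so the first 30 coding bases of the reference transcripts (GENCODE M21, build GRCm38, the build of the files) are given here 5′ to 3′, with the first 12 bases, the first 4 codons, in capitals.
*Tuba1a*: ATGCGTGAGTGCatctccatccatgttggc
*Tuba1b*: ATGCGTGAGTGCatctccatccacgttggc
*Tuba1c*: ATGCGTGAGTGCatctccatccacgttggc
*Tuba4a*: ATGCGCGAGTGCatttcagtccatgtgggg
*Tubb2a*: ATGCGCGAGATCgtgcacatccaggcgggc
*Tubb2b*: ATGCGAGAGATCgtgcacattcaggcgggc
*Tubb4b*: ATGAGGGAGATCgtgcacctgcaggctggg
*Tubb5*: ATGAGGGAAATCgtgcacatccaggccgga
*Tubg1*: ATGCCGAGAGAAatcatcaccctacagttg
*Tuba1b* and *Tuba1c* have the same 30 bases, while *Tubg1* shares neither the α nor the β start. The sequence and position of *Tubb6* are not shown.

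The isotypes are near-identical in places, which bears on how firmly their levels can be separated. The coding sequences of *Tuba1a* and *Tuba1b* were 98.3% identical, those of *Tuba1b* and *Tuba1c* 97.9% and those of *Tubb2a* and *Tubb2b* 96.5%. Of all 50-base windows of the *Tuba1b* transcript, 73.8% also occurred in a transcript of another gene, mostly *Tuba1c*, and the share was 72.9% for *Tuba1a* and 61% for *Tuba1c*. It was 50.9% for *Tubb4b*, whose matches were mostly the pseudogenes *Tubb4b-ps1* and *Tubb4b-ps2*, 49.6% for *Tubb2a*, 39.3% for *Tubb2b* and 14.1% for *Tubg1*. *Tuba4a* at 1.11%, *Tubb5* at 0.115% and *Tubb6* with no shared window are the members whose reads can be placed most surely. Levels of the 3 *Tuba1* genes, of *Tubb2a* and *Tubb2b*, and of *Tubb4b* are uncertain to the extent that reads from these copies were divided among them.

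In the genome (GRCm38) the *Tuba1* genes lie together on chromosome 15, *Tuba1b* at chr15:98931425-98934565, *Tuba1a* at chr15:98949837-98953703 and *Tuba1c* at chr15:99029891-99038110. *Tubb2a* at chr13:34074274-34078007 and *Tubb2b* at chr13:34126748-34130466 are also neighbours. *Tuba4a* is at chr1:75214228-75219865, *Tubb4b* at chr2:25222160-25224702, *Tubb5* at chr17:35833921-35838306 and *Tubg1* at chr11:101119938-101126419. Each α and β transcript had 4 exons and that of *Tubg1* had 11.

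The libraries held an estimated 10.6 to 15.8 M fragments, so 1 FPKM of a member stood for about 17 to 45 fragments. *Psma7* was at 142 to 201 FPKM in WT GV oocytes against 11.1 to 18.0 in cKO GV oocytes, and at 97.7 to 172 in WT eggs against 13.6 to 59.9 in cKO eggs, so every library fitted its label. All 10 oocyte markers, among them *Zp3*, *Gdf9* and *Bmp15*, were at 1 FPKM or more in each group. Of 18 cumulus and granulosa markers 3 or 4 a group reached 1 FPKM and their summed level was 17.8 to 24.1 FPKM in every library. ERCC spike-in RNA was added but no ERCC entry is in the table, so a change in a transcript's amount per oocyte and a change in its share of the RNA cannot be told apart.

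In WT GV oocytes the β isotype *Tubb4b* led, with 222, 196, 164 and 262 FPKM in replicates 1 to 4. *Tubb6* followed at 164, 170, 137 and 191 FPKM and the α isotype *Tuba1c* at 168, 148, 143 and 156 FPKM. The ranges of these 3 neighbours overlapped, and all libraries of *Tuba4a*, at 134, 114, 92.6 and 130 FPKM, lay below those of *Tuba1c*. *Tubb2a* came next at 75.8, 75.7, 57.1 and 87.4 FPKM, overlapping *Tuba1b* at 58.2, 45.2, 39.2 and 44.3 FPKM. *Tubg1* was at 25.5 to 33.7 FPKM, the third *Tubb5* entry at 8.37 to 18.2, *Tubb2b* at 3.17 to 8.10 and *Tuba1a*, the main α-tubulin of developing neurons, at 0.41 to 1.19. The other 2 *Tubb5* entries stayed under 0.4 FPKM in every library and are not considered further, so *Tubb5* below means the third entry. The 3 entries carry no coordinates, so the third was chosen by its level and its link to the *Tubb5* locus above was not checked.

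**Figure D1:**
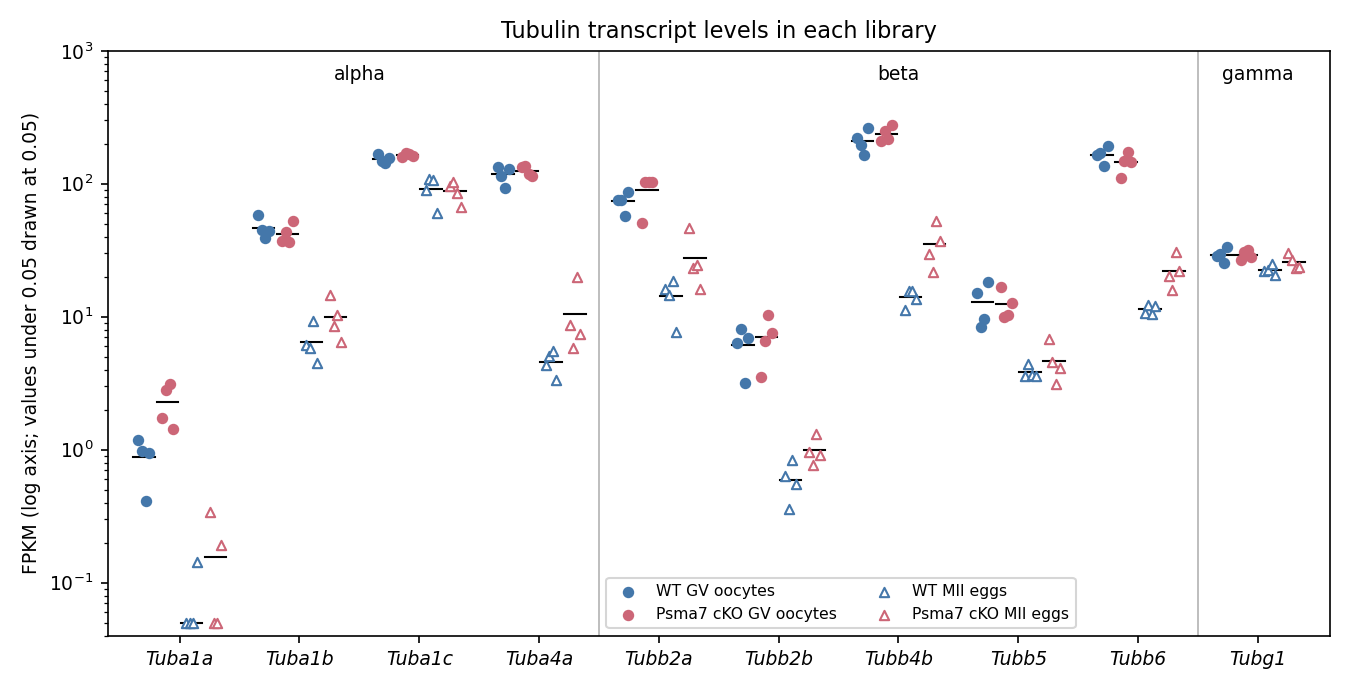
FPKM of each tubulin gene (log axis, values under 0.05 drawn at 0.05) in the 16 libraries, WT in blue and *Psma7* cKO in red, GV oocytes as filled circles and MII eggs as open triangles, with a bar at each group mean of 4 libraries. The GV groups lie side by side for all genes but *Tuba1a*, and the eggs lie below the GV oocytes for all α and β genes, least for *Tuba1c* (60.3 to 109 FPKM in WT eggs).

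In GV oocytes the WT and cKO libraries overlapped for each tested tubulin mRNA but *Tuba1a*. Of the 10 entries tested, those averaging 1 FPKM or more across the 8 GV libraries, 0 passed an adjusted p of 0.05 in limma with Benjamini-Hochberg adjustment, and at an unadjusted p under 0.05 *Tuba1a* alone did, 1 of 10 where 10.7% of all entries did. Among all 11062 entries tested at this stage 0.0994% were called higher and 0.0181% lower (11 and 2 entries, or 5 and 2 with libraries rescaled by their median ratio). By a rule of more than 3-fold between floored group means 0 members passed, against 0.0362% of all entries higher and 0.0271% lower. The threshold is that of the study, which reported more transcripts past it in GV oocytes, so these shares are not the study's counts. *Tubb4b* was at 208, 250, 218 and 275 FPKM in cKO oocytes, which overlapped the WT values (log2 fold change 0.18, SE 0.14, adjusted p = 0.706). *Tuba1c* was at 159, 172, 166 and 162 FPKM (0.10, SE 0.08, adjusted p = 0.723) and *Tubb6* at 111, 147, 175 and 146 FPKM (-0.20, SE 0.14, adjusted p = 0.661). Apart from *Tuba1a*, the log2 fold changes of the tested entries lay between -0.20 and 0.24. *Tubg1* had mean levels of 29.3 FPKM in both genotypes.

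*Tuba1a* was the exception in value, at a low level. Its 4 cKO GV libraries, at 1.72, 2.79, 3.13 and 1.43 FPKM, were all above the 4 WT libraries, and the log2 fold change was 1.04 (SE 0.24) with an adjusted p of 0.130 in limma. It passed the filter through its cKO libraries, and 3 of 4 WT values were raised to the floor of 1 FPKM, so the fold change is understated (ratio of means 2.57) and the WT spread reduced. Over all entries tested, 4.25% had cKO libraries all above the WT libraries and 2.42% all below. The sequence shared with *Tuba1b* and *Tuba1c* at far higher levels, makes this value the least certain of the set, and the part of that overlap in the result was not tested.

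During WT maturation the α and β tubulin mRNAs of the set fell unequally. In WT eggs *Tuba4a* was at 4.33, 5.07, 5.48 and 3.35 FPKM, which is 2.85% to 4.67% of its mean in WT GV oocytes. *Tubb4b* was at 11.2, 15.7, 15.7 and 13.7 FPKM, or 5.31% to 7.43% of the GV mean, and *Tubb6* at 10.6, 12.3, 10.5 and 12.1 FPKM, or 6.34% to 7.44%. These 3 were the most reduced of the tested members, and all of their egg libraries lay below every GV library.

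The log2 fold changes from GV to MII in WT were -4.70 for *Tuba4a* (SE 0.17, adjusted p = 1.88e-09), -3.90 for *Tubb4b* (SE 0.15, adjusted p = 3.61e-09) and -3.85 for *Tubb6* (SE 0.11, adjusted p = 6.95e-10). Only 0.439% of all 10475 entries tested had a lower value than *Tuba4a*, 1.71% a lower value than *Tubb4b* and 1.81% a lower value than *Tubb6*. The floor of 1 FPKM limits the fall of entries with low GV levels, so these shares also depend on the high starting levels of these genes.

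A middle group kept more of its GV level. *Tuba1b* was at 6.15, 5.79, 9.31 and 4.51 FPKM in WT eggs, 9.64% to 19.9% of the GV mean, with a log2 change of -2.90 (SE 0.20). *Tubb2a*, at 16.2, 14.6, 18.4 and 7.69 FPKM, kept 10.4% to 24.9% (-2.43, SE 0.24), and *Tubb5*, at 3.61 to 4.42 FPKM, kept 28.2% to 34.5% (-1.68, SE 0.23). *Tubb2b* fell to 0.36 to 0.84 FPKM, under the floor of 1 FPKM used on the log scale, so its change of -2.54 is limited by that floor and was -3.35 with a floor of 0.1 FPKM.

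*Tuba1c* stood apart among the α and β members, with 89.2, 109, 107 and 60.3 FPKM in WT eggs, 39.1% to 71.1% of its GV level. Outside the set, the β gene *Tubb3* kept more, 74.8% to 110%. The log2 change of *Tuba1c* was -0.79 (SE 0.17, adjusted p = 0.00121), lower in 4 of 4 libraries, and 40.4% of all entries fell more. *Tubg1*, at 21.9, 22.4, 24.9 and 20.6 FPKM, kept 70.3% to 84.8% (-0.38, SE 0.10, adjusted p = 0.00580). In WT eggs *Tuba1c* was thus the most abundant member, without overlap with the next, and *Tubg1* the second, above *Tubb2a* and *Tubb4b*, whose ranges overlapped.

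In all, 9 of the 9 entries tested were called lower in WT eggs, where 52.4% of all entries tested were called lower and 26.1% higher, and all 9 had egg libraries below every GV library, as 48.7% of all entries had, while 23.9% had all egg libraries above. By the 3-fold rule on group means 7 members fell and 0 rose, against 22.1% and 1.07% of all entries. The median log2 change of the 9 was -2.54 against -0.44 over all entries. *Tubb2b* passed the filter on mean level through its GV libraries alone, and *Tuba1a* did not pass it, with 2 of 4 WT egg libraries listed at 0 and the others at 0.04 and 0.14 FPKM. Libraries rescaled by their median ratio had a median change near 0, 0.03 in log2, with 4172 entries called higher and 4181 lower rather than 2738 and 5486, and on that scale 7 of the 9 were called lower, at -4.24 to -1.23. *Tuba1c* was then at -0.34 with an adjusted p of 0.0655, and *Tubg1* turned to 0.07 with an adjusted p of 0.512.

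The shares of the members within their class differed between the stages. *Tuba1c* gave 48.5% ± 2.44 (SD, n = 4) of the summed FPKM of the 4 α genes in WT GV oocytes and 89.1% ± 1.40 in WT eggs, while *Tuba4a* went from 36.7% ± 2.28 to 4.50% ± 0.30. Among the 5 β genes *Tubb2a* went from 15.8% ± 0.50 to 31.8% ± 8.28 and *Tubb4b* from 44.8% ± 1.66 to 32.0% ± 4.05. In WT GV oocytes the summed α over the summed β FPKM gave a ratio of 0.687 ± 0.076. In WT eggs the ratio was 2.29 ± 0.33, and no libraries of the 2 stages overlapped.

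These shares and the ratio depend on which genes are summed. *Tuba3a*, an α gene outside the set, was at 183 to 263 FPKM in WT GV oocytes and 48.5 to 64.0 in WT eggs, and *Tubb3*, a β gene best known from neurons, was at 50.5 to 92.8 and 53.5 to 78.5 FPKM. With these and the other listed α and β genes added, the ratio was 1.03 ± 0.10 in WT GV oocytes and 1.54 ± 0.10 in WT eggs. *Tuba1c* then made up 28.0% ± 2.69 of the α sum in WT GV oocytes and 52.3% ± 4.36 in WT eggs. *Tubb3* made up 60.5% ± 1.81 of the β sum in WT eggs, *Tubb4b* went from 39.0% ± 1.40 to 12.7% ± 1.99, and *Tubb2a*, at 13.7% ± 0.42 and 12.5% ± 3.14, overlapped between the stages. *Tubb3* overlapped between stages (log2 change -0.05, SE 0.17, adjusted p = 0.785; 0.40 with an adjusted p of 0.0371 after rescaling), and *Tubg2*, the other γ-tubulin gene, was at 96.8 to 133 FPKM in WT GV oocytes and 83.5 to 111 in WT eggs, above *Tubg1* in every library, and changed by -0.37 (SE 0.12, adjusted p = 0.0161; 0.08 after rescaling, adjusted p = 0.501).

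**Figure D2:**
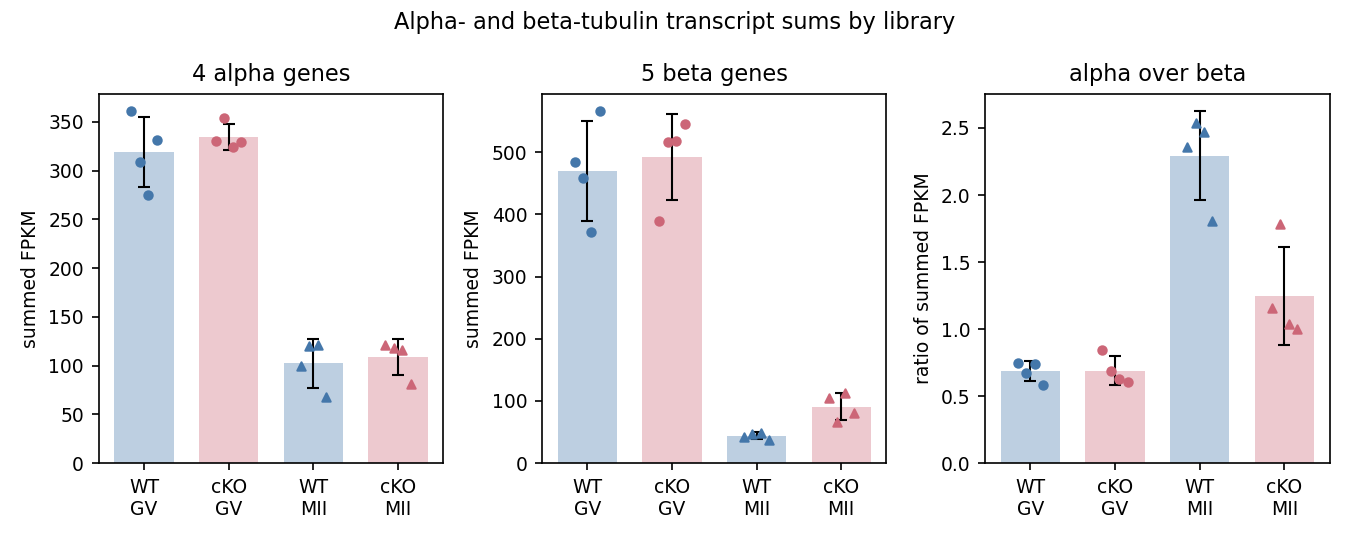
Summed FPKM of the 4 α genes and of the 5 β genes and the ratio of these sums, with bars at the mean of 4 libraries, error bars of 1 SD and a point for each library, WT in blue and *Psma7* cKO in red. The α sums of the egg groups overlap (68.3 to 121 in WT, 80.9 to 121 in cKO), the β sums do not (37.7 to 49.1 against 66.2 to 112).

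In eggs the β-tubulin mRNAs *Tubb4b* and *Tubb6* were higher in the cKO than in WT. *Tubb4b* was at 29.5, 21.8, 52.4 and 37.3 FPKM, all above the WT egg values of 11.2 to 15.7. Its log2 fold change was 1.26 (SE 0.24), a ratio of means of 2.50, with an adjusted p of 0.0287 in limma. *Tubb6* was at 20.2, 15.8, 30.7 and 22.0 FPKM against 10.5 to 12.3 in WT, a log2 fold change of 0.92 (SE 0.18, adjusted p = 0.0295) and a ratio of means of 1.95.

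These were the 2 of 8 tested entries that passed, against 6.53% of all 9492 entries called higher and 1.49% called lower (620 and 141 entries, or 497 and 259 after rescaling), and 0 of the 8 were called lower. By the 3-fold rule 0 passed, against 1.76% of all entries higher and 0.0211% lower. For *Tubb4b* the adjusted p was 0.0502 to 0.0883 when WT egg replicate 1, 2, 3 or 4 or cKO egg replicate 1 or 4 was left out, with log2 fold changes of 1.16 to 1.32. For *Tubb6* it was 0.0537 to 0.0911 without WT egg replicate 1, 2, 3 or 4 or cKO egg replicate 1, with log2 fold changes of 0.89 to 0.96. Either call passed without cKO egg replicate 2 or 3.

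*Tuba4a* had the same direction without passing the threshold. It was at 8.68, 5.84, 19.7 and 7.37 FPKM in cKO eggs, above the 4 WT libraries of 3.35 to 5.48, with a log2 fold change of 1.05 (SE 0.35, adjusted p = 0.0875), and without cKO egg replicate 2 the adjusted p was 0.0436. With *Tubb4b* and *Tubb6* it was one of 3 entries whose cKO egg libraries all lay above the WT libraries, as 13.6% of all entries did, while 7.06% lay all below.

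*Tubb2a*, at 46.9, 23.2, 24.4 and 16.3 FPKM in cKO eggs, had its lowest library within the WT range (0.92, SE 0.35, adjusted p = 0.121). *Tuba1b* was at 14.7, 8.47, 10.4 and 6.51 FPKM (0.62, SE 0.28, adjusted p = 0.173) and *Tubb5* at 6.82, 4.56, 3.12 and 4.08 FPKM (0.23, SE 0.22, adjusted p = 0.517). *Tubb2b* and *Tuba1a* did not reach a mean of 1 FPKM over the egg libraries and were not tested. *Tubb2b* was at 0.77 to 1.31 FPKM in cKO eggs against 0.36 to 0.84 in WT eggs, and *Tuba1a* at 0.05 to 0.34 against 0 to 0.14.

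The 2 members that fell least in WT had log2 fold changes of -0.03 and 0.20 between the egg groups. *Tuba1c* was at 97.0, 104, 85.8 and 66.8 FPKM in cKO eggs, all inside the WT range (-0.03, SE 0.20, adjusted p = 0.936). *Tubg1* was at 30.3, 26.5, 23.4 and 23.5 FPKM (0.20, SE 0.10, adjusted p = 0.226). The median log2 fold change of the 8 tested entries was 0.77 against 0.07 over all entries. All entries include many that did not fall in maturation, and other entries that fell are given below.

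**Figure D3:**
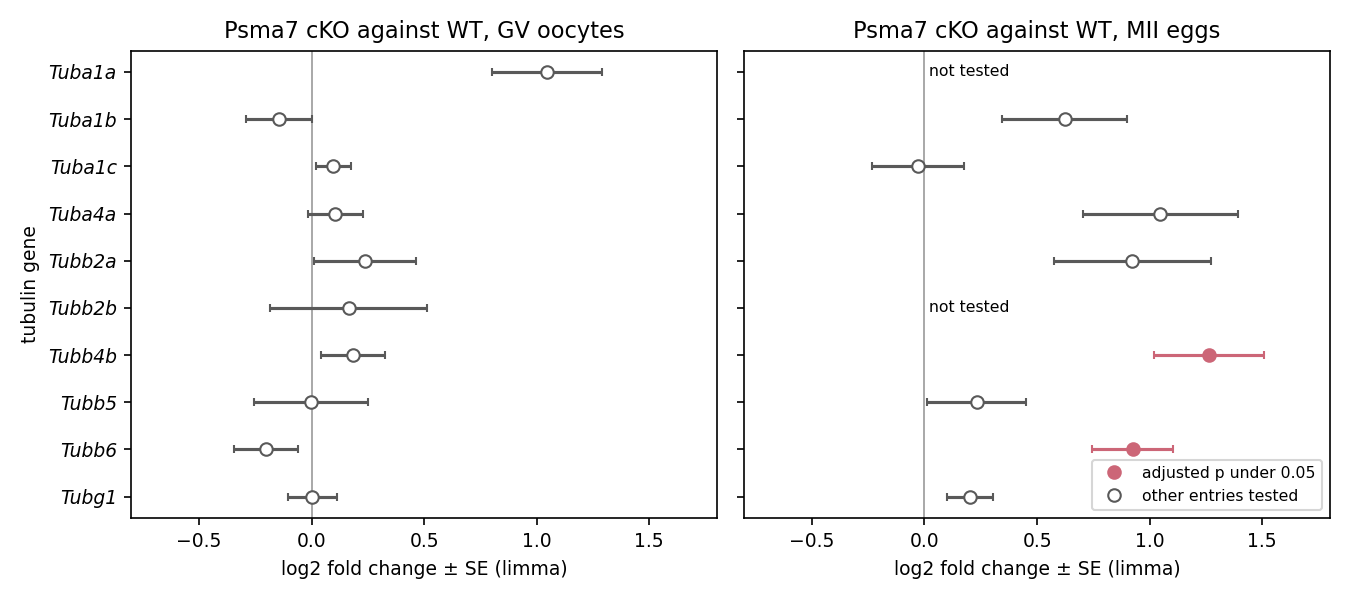
log2 fold change of *Psma7* cKO against WT with its SE from limma, for each tubulin gene in GV oocytes (left) and MII eggs (right), with genes at an adjusted p under 0.05 filled in red. In GV oocytes all genes but *Tuba1a* lie between -0.20 and 0.24, and in MII eggs *Tubb4b* (1.26) and *Tubb6* (0.92) pass.

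Set against the GV mean of its genotype, each cKO egg library gives the level of a transcript in eggs relative to GV oocytes. These percentages compare shares of RNA and not amounts per oocyte. *Tubb4b* stood at 12.4%, 9.16%, 22.0% and 15.7% of the cKO GV mean in replicates 1 to 4, against at most 7.43% in a WT egg library. *Tubb6* stood at 14.0%, 10.9%, 21.3% and 15.2%, against at most 7.44%. *Tuba4a* stood at 6.91%, 4.65%, 15.7% and 5.88%, so that replicate 2 lay at the highest WT library of 4.67%. *Tubb2a* stood at 52.1%, 25.8%, 27.1% and 18.1% and *Tubg1* at 103%, 90.3%, 79.7% and 80.1%.

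The cKO egg libraries were not equally shifted. The 392 other entries whose mean fell more than 10-fold in WT, the tubulin members and listed genes left out, summed to 5.95%, 6.81%, 6.21% and 6.06% of their GV level in WT eggs and to 12.7%, 8.81%, 34.7% and 19.2% in cKO eggs. The low WT values follow from this selection, which did not use the cKO libraries. On average this sum stood at 6.26% in WT eggs and 18.85% in cKO eggs. *Tubb4b* stood at 6.66% and 14.81%, *Tubb6* at 6.88% and 15.35%, and *Tuba4a* at 3.88% and 8.29%. Higher values in cKO eggs were thus not particular to tubulin mRNAs. Replicate 3 was highest and replicate 2 lowest in the sum of the 392 entries, and so they were for *Tubb4b*, *Tubb6*, *Tuba4a* and *Tubb2b*. *Tuba1b*, *Tubb2a*, *Tubb5* and *Tubg1* were highest in replicate 1 instead. Without replicate 3 the log2 fold changes were 1.05 for *Tubb4b* (adjusted p = 0.0297), 0.75 for *Tubb6* (adjusted p = 0.0270) and 0.68 for *Tuba4a* (adjusted p = 0.189). The part of this difference between libraries in the tubulin values was not tested further.

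**Figure D4:**
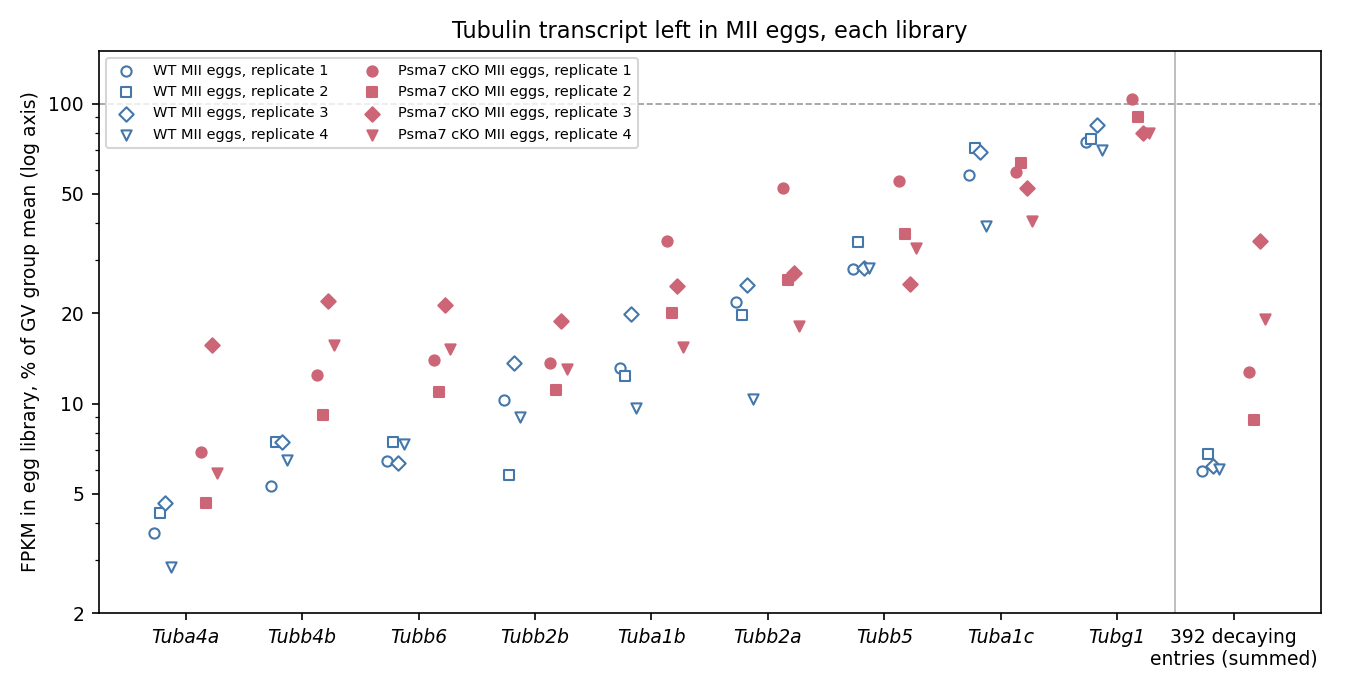
FPKM of each egg library as a percentage of the mean of the GV libraries of its genotype (log axis), for 9 tubulin genes ordered from the most to the least reduced and for the summed FPKM of 392 other entries selected for a fall over 10-fold in WT. WT eggs are open blue symbols and *Psma7* cKO eggs filled red symbols, with one shape for each replicate number. For *Tubb4b* and *Tubb6* the cKO libraries (9.16% to 22.0% and 10.9% to 21.3%) lie above all WT libraries, and for *Tuba1c* the groups overlap.

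Tubulin mRNAs of the set, but for *Tubg1*, still fell during maturation in the cKO. Of 10 entries tested 9 were called lower, where 51% of all entries were called lower and 23% higher (5482 and 2472 entries, or 4006 and 3919 after rescaling), and the 9 had egg libraries below all GV libraries, as 47.2% of all entries had, while 21.4% had all egg libraries above. By the 3-fold rule 6 fell and 0 rose, against 17.2% and 0.856% of all entries. The log2 changes were -3.76 for *Tuba4a* (SE 0.32), -2.82 for *Tubb4b* (SE 0.24), -2.73 for *Tubb6* (SE 0.21), -2.60 for *Tubb2b* (SE 0.29), -2.13 for *Tuba1b* (SE 0.23) and -1.75 for *Tubb2a* (SE 0.34). *Tubb5* (-1.45, SE 0.25), *Tuba1a* (-1.11, SE 0.24) and *Tuba1c* (-0.92, SE 0.13) fell less on this scale, but *Tuba1a* dropped under the floor in every egg library and was at -3.75 with a floor of 0.1 FPKM. *Tuba1a* and *Tubb2b* passed the filter on mean level through their GV libraries alone. *Tubb2b* had a mean of 0.989 FPKM in cKO eggs, with values under the floor, so its change is limited by the floor too. *Tubg1* was at -0.18 (SE 0.11, adjusted p = 0.166) and at 0.24 after rescaling (adjusted p = 0.0983).

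Whether the fall differed between genotypes was tested with the interaction of genotype and stage over all 16 libraries. *Tubb6* was the 1 of 9 tested entries that passed, with an interaction of 1.13 in log2 (SE 0.24, adjusted p = 0.0353), where 1.07% of all 10615 entries were called higher and 0.188% lower. By a 3-fold rule on the ratio of the fold changes 0 passed, against 1.55% of all entries higher and 0.0377% lower. The *Tubb6* interaction was 0.96 to 1.28 with any library left out, and the adjusted p was 0.0507 to 0.0783 without WT GV replicate 1, 2 or 4, cKO GV replicate 1, 2 or 4, WT egg replicate 1, 3 or 4, or cKO egg replicate 4. The interaction was 1.08 for *Tubb4b* (SE 0.30, adjusted p = 0.0825), 0.94 for *Tuba4a* (SE 0.39, adjusted p = 0.214) and 0.77 for *Tuba1b* (SE 0.33, adjusted p = 0.239). It was -0.13 for *Tuba1c* (SE 0.23, adjusted p = 0.834) and 0.20 for *Tubg1* (SE 0.15, adjusted p = 0.541).

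By class, the summed FPKM of the α genes was 102 ± 24.9 (SD, n = 4) in WT eggs and 109 ± 18.8 in cKO eggs, and that of the β genes 44.1 ± 5.17 and 90.8 ± 21.2. In GV oocytes the sums were 319 ± 36.1 and 334 ± 13.4 for α and 470 ± 80.3 and 492 ± 69.6 for β. The α to β ratio of cKO eggs was 1.25 ± 0.37, below all WT egg libraries, and with the other listed genes added it was 1.12 ± 0.14 against 1.54 ± 0.10. In cKO eggs *Tuba1c* made up 74.0% to 87.9% of the α sum, against 87.8% to 90.9% in WT eggs.

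Stored oocyte mRNAs are lengthened or shortened at their poly(A) tails through sequences near the 3′ end, and 2 such motifs were searched in the tubulin transcripts. The cytoplasmic polyadenylation element was searched as TTTTAT or TTTTAAT on the sense strand, in the last 100 bases of 1 reference transcript per gene. It was present in 19.7% of the 8867 transcripts of expressed genes and in *Tubb2b* alone among the 10 members. Outside this window *Tuba4a* had 1 such element in its 3′ untranslated region. Whether a motif is found thus depends on the annotated end of the transcript used. The polyadenylation signal, AATAAA or ATTAAA, was present in 79.1% and in 7 of the 10 members, all but *Tuba1b*, *Tuba4a* and *Tubb2b*. The 30 bases around it are shown, with the signal in capitals, for the α member that fell least and the β member with the largest difference between egg groups.
*Tuba1c*: taactgtcctaaactgtcAATAAAggtgtt
*Tubb4b*: acttgtacagataccaccATTAAAgcaatt
The signal of *Tuba1c* begins 27 bases before the annotated end and the variant of *Tubb4b* 23 bases before it.

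The genes whose centred log2 profile over the 16 libraries was most like that of *Tuba1c*, the most abundant α member of WT GV oocytes, were *Fancg*, *Tmem248* and *Pole*, with root mean square differences of 0.151, 0.162 and 0.163 against a median of 0.582 over 10606 entries. For *Tubb4b*, the most abundant β member of WT GV oocytes, they were *Zfp296*, *Cpsf4l* and *Gja4*, at 0.175, 0.197 and 0.200 against a median of 1.57.

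Among genes that act on tubulin, the folding and dimer assembly list (prefoldin subunits, the cofactors *Tbca* to *Tbce*, *Arl2*, *Pdcl3* and *Ttc5*) was the only one of 5 lists with members called between genotypes. In GV oocytes 0 of its 14 tested entries were called in limma (3 at an unadjusted p under 0.05, as 10.7% of all entries had), and in MII eggs 2 of 13 were higher and 0 lower (7 and 0 at an unadjusted p under 0.05). Over all entries 6.53% were called higher in eggs, and 20.6% were higher and 8.80% lower at an unadjusted p under 0.05. *Ttc5*, whose product is the sensor of tubulin autoregulation named above, was at 0.68 to 0.95 FPKM in WT eggs and at 1.75, 1.52, 3.43 and 2.31 in cKO eggs (log2 fold change 1.10, SE 0.24, adjusted p = 0.0333). *Arl2*, a small GTPase that works with the cofactors in dimer assembly, was at 27.9 to 41.1 FPKM in WT eggs and at 62.2, 49.2, 88.9 and 58.7 in cKO eggs (0.87, SE 0.19, adjusted p = 0.0340). The adjusted p of both exceeded 0.05 without WT egg replicate 1, 2, 3 or 4 or cKO egg replicate 1 or 4, at 0.0537 to 0.102. All 4 WT values of *Ttc5* lay under the floor of 1 FPKM, so it was tested through its cKO libraries alone, its WT group has no spread on the log scale, and its p depends on the floor. Neither gene passed in the interaction (*Ttc5* adjusted p = 0.0836, *Arl2* adjusted p = 0.0617), but after rescaling *Ttc5* did (1.18, adjusted p = 0.0351). Without rescaling 0 of the 14 entries of the list tested in the interaction were called. At an unadjusted p under 0.05 in limma 7 were higher and 0 lower there, where 12.7% and 5.03% of all entries were.

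*Ttc5* was also the gene of that list with the largest fall in WT maturation, from 18.4 to 28.4 FPKM in GV oocytes to under 1 FPKM in eggs, a log2 change of -4.55 (SE 0.15) that is limited by the floor and a ratio of means of 28.6. It was followed by the prefoldin subunit *Pfdn6* (first entry, -4.04, SE 0.25) and the cofactor *Tbcc* (-2.94, SE 0.13), and the highest changes of the list were those of *Pfdn4* (1.13, SE 0.11), *Pdcl3* (0.71, SE 0.10) and *Pfdn2* (0.70, SE 0.15). Of its 14 tested entries 9 were lower and 3 higher, against 52.4% and 26.1% of all entries. After rescaling 8 of 13 tested were lower and 3 higher.

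The γ-tubulin ring complex list, the template from which microtubules grow, had 3 of 7 tested entries lower and 2 higher in WT eggs, near the 52.4% and 26.1% of all entries, *Tubgcp2* (-2.94, SE 0.16), *Mzt2* (-2.62, SE 0.15) and *Tubgcp5* (-0.54, SE 0.15) against *Mzt1* (1.18, SE 0.12) and *Cdk5rap2* (0.32, SE 0.11). After rescaling *Tubgcp5* was at -0.09 (adjusted p = 0.592) and was not called, and 3 of the 7 entries were called higher and 2 lower. Of the tubulin modification enzymes 7 of 14 were lower and 5 higher, where 52.4% and 26.1% of all entries were. The lower ones were led by the deacetylase *Sirt2* (-3.12, SE 0.13) and the ligases *Ttll11* (-2.55, SE 0.11) and *Ttll1* (-2.31, SE 0.12). The 5 that were higher were led by the carboxypeptidases *Agbl3* (0.99, SE 0.16), *Agbl5* (0.58, SE 0.18) and *Agtpbp1* (0.45, SE 0.10). After rescaling 7 of the 14 modification enzymes were called higher and 7 lower.

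Of the severing enzymes, which cut microtubules, *Katnal2* (-2.74, SE 0.12) and *Katnal1* (-0.49, SE 0.12) were lower in WT eggs. Of 7 tested, 3 were higher (*Katnbl1* 0.95, SE 0.09, *Spast* 0.57, SE 0.13 and *Fignl1* 0.41, SE 0.09), where 26.1% of all entries were higher. Of 7 tested entries of the other tubulin genes, *Tubd1* (-2.39, SE 0.16), *Tuba3a* (-1.95, SE 0.15) and *Tubg2* were lower, where 52.4% of all entries were. *Tubal3* (0.54, SE 0.15) and *Tube1* (0.42, SE 0.11) were higher. After rescaling 3 of these 7 entries were called higher and 2 lower. In limma 0 entries of these 4 lists were called between genotypes or in the interaction, while 4 of 36 in GV oocytes, 9 of 31 in MII eggs and 3 of 35 in the interaction had an unadjusted p under 0.05, as 10.7%, 29.4% and 17.7% of all entries had. *Katnal1*, whose protein the study examined, was at -0.04 in WT maturation after rescaling (adjusted p = 0.772), which ends its call there. Its mRNA was at 3.26, 2.74, 2.93 and 3.28 FPKM in WT eggs and at 1.97, 2.28, 2.26 and 2.66 in cKO eggs, without overlap (log2 fold change -0.42, SE 0.14, adjusted p = 0.0862). The direction in eggs was thus opposite to that reported for the protein. *Spast* also lay all below (-0.38, SE 0.13, adjusted p = 0.0995), 2 of 6 tested severing entries, and 0 lay all above. Of all entries 7.06% lay all below.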

How the data were processed

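The deposited table held FPKM for 28618 entries in 16 libraries, 4 per group. Per the labels and the study's methods, the authors lysed pooled oocytes, made Smart-seq2 libraries and computed FPKM with Cufflinks 2.2.1, and the submitters' processing notes also name TopHat2 2.1.1 and mm10. How Cufflinks divided reads among near-identical tubulin genes is not given in the sources used here. Groups were taken from the labels. The labels give biological replicates but not whether each came from its own animal, so p-values measure the spread between these samples.

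Values below 1 FPKM were set to 1, as in the study, and log2 values of entries averaging 1 FPKM or more across the libraries of a comparison were tested with limma 3.58.1 in R 4.3.3 (lmFit, eBayes with an intensity trend), two-sided, with Benjamini-Hochberg adjustment over all entries tested and a threshold of 0.05. A fold change on this scale understates the change of low genes. GV oocytes, MII eggs, WT maturation and cKO maturation were each fitted on their own 8 libraries, and the interaction on 16. The fit was tested on simulated data. Depth was estimated from the smallest nonzero values of 5816 genes with 1 annotated transcript, since FPKM carries no counts, and covers counting error only. Percentages of the GV level in eggs are each egg library over the mean of the GV libraries of its genotype, on unfloored FPKM.

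The alternatives were another floor (0.1 FPKM), 1 FPKM added to all values, no filter, a mean of at least 5 FPKM and no intensity trend. Others were rescaling by median ratios, entries summed per gene name, a replicate block and 16 libraries in 1 fit. A 3-fold rule on floored group means, which takes only its threshold from the study, and leaving out each library were also run. Reference transcripts were those of GENCODE M21. The tubulin genes and the lists were chosen with earlier results of these data known. Besides the 10 members, listed genes were named when called between genotypes or in the interaction, and in WT maturation the 3 highest and 3 lowest called per list. One result of the severing enzyme list is not reported here.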

Additional observations from a re-analysis of the deposited data

Results flagged for a closer look

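The highest and lowest library of each group was compared with the rest by Dixon's ratio, the gap to the nearest library over the range of the group. In 37 groups of tubulin values 2 exceeded Dixon's 95% critical value for 4 libraries, and chance gives about 1 in 20. *Tubb2a* in cKO GV oocytes had a ratio of 0.970, with replicate 1 at 50.4 FPKM and the others at 102 to 104. *Tubb5* in WT eggs had a ratio of 0.988, with replicate 2 at 4.42 FPKM and the others at 3.61 to 3.62. The fall of *Tubb6* from GV to MII differed between genotypes by 1.1282 in log2 in the interaction test (limma, adjusted p = 0.0353).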

How the results depend on the processing

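Of 876 values of single tubulin entries under an alternative, 812 kept their direction and their side of the threshold, 34 kept the direction but no longer passed, 5 passed anew and 25 turned sign. In MII eggs the 2 called entries became 4 with no filter (*Tuba4a* and *Tubb2a* added), 0 with the 3-fold rule, and 0 to 3 with a library left out. In the interaction the 1 called entry became 0 with no filter, 0 with the 3-fold rule, and 0 to 2 with a library left out (*Tubb4b* added without cKO egg replicate 2, adjusted p = 0.00981). The counts of 0 in GV oocytes, 9 in WT maturation and 9 in cKO maturation stayed within 1.5 times under each alternative run.

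Same-numbered libraries of 2 groups had deviations correlated at -0.496 to 0.285, and 6 of 24 were over 0.1. These values show no clear pairing by replicate number but cannot exclude one. With the replicate block 0 entries were called in eggs (*Tubb4b* adjusted p = 0.0502, *Tubb6* 0.0627) and 0 in the interaction (*Tubb6* 0.0569).

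Sign changes concerned values that passed no threshold, but for *Tubg1* in WT maturation. With libraries left out, *Tuba4a* in GV oocytes was at -0.004 to 0.17, *Tubb2b* at -0.13 to 0.46, *Tubb5* at -0.18 to 0.19 and *Tubg1* at -0.061 to 0.073. *Tuba1c* was at -0.22 to 0.099 in eggs and -0.31 to 0.0014 in the interaction, and *Tubb2b* at -0.36 to 0.23 in the interaction. *Tubg1* in GV oocytes was -0.034 on rescaling and -0.0001 by the 3-fold rule. In maturation *Tubg1* was 0.071 in WT and 0.24 in cKO on rescaling. In the interaction *Tubb2b* was 0.61 with a floor of 0.1 FPKM, 0.18 with 1 FPKM added and 0.024 on rescaling.

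Over all entries, the 620 higher and 141 lower calls in MII eggs became 101 and 7 with the replicate block. The causes were not tested. Values under 1 FPKM, *Tuba1a* and *Tubb2b* in eggs, rest on few fragments.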
